A study of Mus musculus with 5 samples.

Results

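The axon guidance genes described here are the Eph receptors and their ephrin ligands, the semaphorins with their plexin and neuropilin receptors, the Slits with the Robo receptors, and the netrins with the Unc5 receptors, Dcc and Neo1. They were taken by gene symbol, with no use of their measured values. This gave 71 gene rows of the 27998 in the count matrix, with 69 different symbols, because Ntn5 is listed under 3 gene identifiers. The 71 rows were 9 EphA and 5 EphB receptors, 5 ephrin-A and 3 ephrin-B ligands, 20 semaphorins, 9 plexins, 2 neuropilins, 3 Slits, 4 Robo receptors, 5 netrin rows, 4 Unc5 receptors, and Dcc with Neo1.

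The cells came from the ocular area of wild-type C57BL/6J mouse embryos at 12, 16, 20, 24 and 26 somites. Per the labels, 1 embryo was taken at each stage, both optic areas were cut out with a needle, trypsin released the cells, and a droplet library was made from about 2000 of them per sample that counts the 3′ ends of transcripts. All embryos were untreated as far as the labels say, and with 1 embryo per stage there was no replicate. The matrix pools 5 libraries, told apart by a barcode suffix that names no stage, so the libraries are numbered by suffix and no stage is given to any of them.

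Guidance ligands and receptors let a cell read its neighbours. Ephrins sit on the cell surface and signal in both directions on contact with Eph receptors, the A and B classes pairing mostly within their own class. Secreted class 3 semaphorins bind neuropilins, which signal through plexins, whereas most other semaphorins bind plexins directly. Slits act on Robo receptors, and netrins attract growth cones through Dcc and repel them through Unc5 receptors. Before any retinal axon exists, the same molecules are used to sort cells, set boundaries between tissues, guide neural crest cells and pattern blood vessels, and in the later retina graded Eph and ephrin levels map axons onto their targets.

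The promoters of the members that stand highest in the vessel cells are shown first, because those members stood high together in the contrast with the most guidance genes called. Of the 8 guidance genes that were higher in endothelium-like cells, 4 had the string CAGGAA or its reverse complement TTCCTG in the 250 bases before a start. These matches lay in 4 of the 10 promoters tabulated for them. The string is 1 form of the sites bound by ETS factors, whose core is the shorter GGAA. The same string was present in 25.7% of 32851 mouse promoter windows of 250 bases. Sequences are from RefSeq, build GRCm38.p6, read 5′ to 3′ on the gene's own strand, with each match in capitals and the last base next to the start.
Robo4, chr9:37401722-37401971, plus strand: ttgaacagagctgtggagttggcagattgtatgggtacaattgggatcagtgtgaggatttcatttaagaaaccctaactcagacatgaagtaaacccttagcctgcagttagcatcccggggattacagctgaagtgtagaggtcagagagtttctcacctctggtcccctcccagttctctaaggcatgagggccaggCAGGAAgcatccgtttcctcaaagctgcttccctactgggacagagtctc
Plxnd1, chr6:115995006-115995255, minus strand: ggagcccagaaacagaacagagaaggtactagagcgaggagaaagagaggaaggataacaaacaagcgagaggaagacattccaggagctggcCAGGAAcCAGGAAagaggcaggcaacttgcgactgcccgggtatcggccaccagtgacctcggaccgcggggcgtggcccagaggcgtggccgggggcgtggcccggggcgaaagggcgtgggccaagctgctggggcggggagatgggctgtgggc
Efna1, chr3:89280952-89281201, minus strand: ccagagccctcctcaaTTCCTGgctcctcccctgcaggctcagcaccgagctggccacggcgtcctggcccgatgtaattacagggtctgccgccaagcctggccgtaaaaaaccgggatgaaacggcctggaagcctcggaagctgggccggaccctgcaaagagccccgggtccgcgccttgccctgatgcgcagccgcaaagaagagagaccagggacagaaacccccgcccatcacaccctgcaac
Nrp2, chr1:62703067-62703316, plus strand: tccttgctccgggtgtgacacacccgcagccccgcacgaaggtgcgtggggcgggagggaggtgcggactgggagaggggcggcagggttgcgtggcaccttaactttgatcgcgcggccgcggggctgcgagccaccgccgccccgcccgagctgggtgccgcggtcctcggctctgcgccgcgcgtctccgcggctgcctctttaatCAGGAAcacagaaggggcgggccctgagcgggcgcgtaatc
Robo4, Efna1 and Nrp2 each held 1 match, at 50, 234 and 41 bases before the start, and Plxnd1 held 2, at 157 and 150 bases before it. The promoters of Nrp1, Sema6d, Ephb4 and Efnb2 and the second promoter of Efna1 did not hold this string. Other ETS sites were not searched. Each of these windows without the string does hold the shorter GGAA or its reverse complement TTCC. A match is a string and not evidence of binding.

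The promoter of Unc5b is shown because Unc5b and the dorsal T-box genes were high in the same sub-clusters of optic vesicle-like cells. In libraries 2 to 5 the sub-cluster highest in Unc5b was also the highest in the eye field gene Rax. Which of these genes Unc5b follows was not tested. The promoter was searched for a T-box half-site, GGTGTGA or its reverse complement TCACACC, which 3.33% of the 32851 windows held. Neither Unc5b nor the 3 tabulated promoters of Robo2, the other member that was higher in dorsal-marked cells, held this string, which says only that these letters are not in these windows.
Unc5b, chr10:60831582-60831831, minus strand: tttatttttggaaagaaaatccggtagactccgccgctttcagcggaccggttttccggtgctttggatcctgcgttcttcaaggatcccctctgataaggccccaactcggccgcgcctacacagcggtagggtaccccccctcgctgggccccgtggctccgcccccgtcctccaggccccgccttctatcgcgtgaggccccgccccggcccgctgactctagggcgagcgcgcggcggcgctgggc

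Across the 5 libraries there were 8194 barcodes with 41694822 to 72925591 UMIs per library, where a UMI is 1 counted RNA molecule, and 8106 cells were kept. Cells were clustered without the guidance genes and named from marker genes. Levels are given as CPM, the UMIs of a gene in all cells of a class scaled to the UMI total of that class. Counts of 3′ ends have no length scale, so levels are compared for 1 gene between classes and not between genes. The classes compared were 1911 optic vesicle-like cells (74, 335, 389, 288 and 825 in libraries 1 to 5), 707 telencephalon-like, 1265 diencephalon-like, 404 surface ectoderm-like, 1789 crest mesenchyme-like, 443 head mesoderm-like, 388 endothelium-like and 253 erythroid-like cells. Library 5 held 0 telencephalon-like and 0 diencephalon-like cells. Rax, the eye field transcription factor, was at 56.4 to 308 CPM in each of the 17 optic vesicle-like sub-clusters. The 286 cells of clusters with markers of a second tissue, 550 cells with low nuclear Malat1 and 8 unnamed cells were left out of all classes, and 40 barcode sequences occurred in more than 1 library.

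Guidance genes differed in the tissue where each was highest. In at least 1 of the 8 classes 29 members reached 20 CPM, 42 did not, 22 stayed under 5 CPM in every class, and the 2 further Ntn5 rows had 0 UMIs. Of those 29 members, 9 were highest in endothelium-like cells and 8 in surface ectoderm-like cells, against 3 each in optic vesicle-like and diencephalon-like cells, 2 each in telencephalon-like, crest mesenchyme-like and head mesoderm-like cells and 0 in erythroid-like cells. For all 6690 genes that reached 20 CPM, endothelium-like cells were highest for 23.5% and surface ectoderm-like cells for 15.5%. Optic vesicle-like cells were highest for 6.97% of them, diencephalon-like for 7.31% and telencephalon-like for 15.4%. The shares were 11.6% for crest mesenchyme-like, 13.6% for head mesoderm-like and 6.07% for erythroid-like cells. No member reached 20 CPM in erythroid-like cells, whose median depth was 42576 UMIs, against 30497 in optic vesicle-like cells. The share of all genes at that level in erythroid-like cells is not given here. The absence is therefore not read as a trait of the guidance genes.

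**Figure D1:**
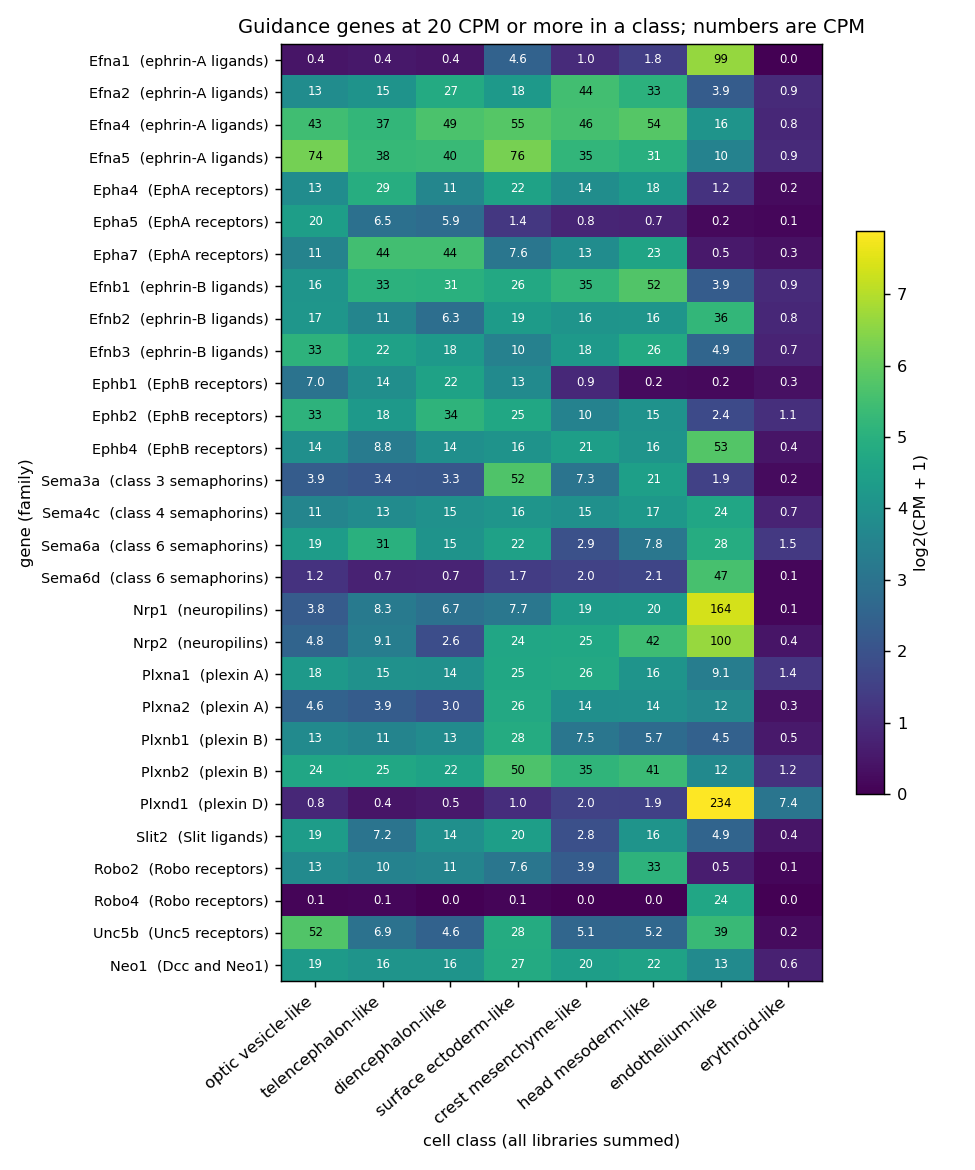
CPM of the 29 guidance genes that reached 20 CPM in at least 1 class (rows, ordered by family) in the 8 cell classes (columns), all libraries summed, with colour for log2(CPM + 1). Plxnd1, Nrp1, Nrp2, Efna1, Sema6d and Robo4 are brightest in the endothelium-like column, Sema3a in the surface ectoderm-like column, and the erythroid-like column is dark.

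The ephrin-A ligands differed from gene to gene in the class where each was highest. Efna5, a ligand of EphA receptors that later forms a gradient in the retinal axon target, was at 76.2 CPM in surface ectoderm-like and 73.7 in optic vesicle-like cells, and at 10.2 in endothelium-like cells. Efna1 was at 99.2 CPM in endothelium-like cells and at most 4.6 in the other 7 classes. Efna2 was highest in crest mesenchyme-like cells (44.4 CPM), and Efna4 was spread over all classes but the blood, from 15.9 CPM in endothelium-like to 54.8 in surface ectoderm-like cells.

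Of the ephrin-B ligands, which have a cytoplasmic tail and signal back into the cell that carries them, Efnb1 was highest in head mesoderm-like cells at 52.1 CPM. Efnb3 was highest in optic vesicle-like cells at 32.9 CPM, and Efnb2 in endothelium-like cells at 36.0 CPM.

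Among the secreted semaphorins 1 gene reached 20 CPM. Sema3a, a secreted repellent that binds neuropilin 1, reached 51.8 CPM in the surface ectoderm-like class, 20.8 in head mesoderm-like cells and at most 7.3 elsewhere. Nrp1 was at 164 CPM in endothelium-like, 19.0 in crest mesenchyme-like, 19.6 in head mesoderm-like, 7.7 in surface ectoderm-like and 3.8 in optic vesicle-like cells. Nrp2, the neuropilin that mainly binds other class 3 semaphorins, was at 99.95, 24.95, 42.0, 24.1 and 4.8 CPM in these classes. Surface ectoderm-like and head mesoderm-like cells, the 2 classes with most Sema3a, thus carried neuropilin transcripts themselves. Sema6a, a membrane semaphorin that binds A-class plexins, was highest in telencephalon-like cells at 31.0 CPM.

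Of the netrins and Slits, only Slit2 reached 20 CPM in a class. Ntn1, the founding netrin, was highest in optic vesicle-like cells, at 10.7 CPM, and stood at 8.3 CPM in head mesoderm-like cells. Dcc, its attractive receptor, was at most 0.61 CPM in the 8 classes and had 3 UMIs in the 32 neuron-like cells, while Neo1, a Dcc relative that also binds repulsive guidance molecules, was at 12.6 to 27.1 CPM in the 7 classes other than blood. Slit2 was at 20.3 CPM in surface ectoderm-like, 19.4 in optic vesicle-like, 15.8 in head mesoderm-like and 2.8 in crest mesenchyme-like cells.

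Unc5b, a repulsive netrin receptor also known from vessels, had the largest ratio of any guidance gene tested between the optic vesicle and the rest of the forebrain. It was at 25.5, 29.9, 32.0 and 54.8 CPM in optic vesicle-like cells of libraries 1 to 4, and at 5.3, 5.5, 5.9 and 4.7 CPM in telencephalon-like and diencephalon-like cells of the same libraries. The optic vesicle-like values lay above the forebrain values in all 4. Over all cells the levels were 52.1 and 5.4 CPM, a 9.57-fold difference (95% interval 8.52 to 10.8, which like all intervals here covers counting error only). That ratio includes library 5 on the optic vesicle side only, and without library 5 it was 6.86. At least 1 Unc5b UMI was found in 51.5% of optic vesicle-like cells and in 0.791% of erythroid-like cells, where all guidance genes were low.

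Differences between classes were called by size and not tested, because libraries that cannot be matched to a sample were not used as replicates. The rule asked for a ratio of at least 2, a 95% interval without 1, and the same direction in every library with 20 or more cells of both classes, among genes with a mean of at least 10 CPM. That mean was taken over the 2 class levels, so a gene low in 1 class could pass through the other alone. Epha5 against mesenchyme and Epha7 and Robo4 in endothelium-like cells are such genes. The shares of all genes were taken under the same filter. By this rule 3 of 21 guidance genes were higher in optic vesicle-like than in other forebrain-like cells and 2 were lower, where 1.57% of all 6882 genes were called (0.843% higher, 0.727% lower). The median log2 ratio was 0.21 over the guidance genes and -0.03 over all genes tested.

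The other calls of this contrast were Eph and ephrin genes. Epha5, a receptor of ephrin-A ligands, was at 5.5, 13.2, 13.3 and 16.6 CPM in optic vesicle-like cells of libraries 1 to 4 and at 4.5, 7.3, 5.3 and 9.3 CPM in other forebrain-like cells. The 2 ranges overlapped, and the gap within library 1 was small. The pooled ratio was 3.31 (2.95 to 3.74), which includes the 825 cells of library 5 on 1 side only, and was 2.24 without library 5, where the gene's mean was under 10 CPM and the call was lost.

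Epha7, which marks forebrain territories, was the clearest gene of the opposite pattern. It was at 11, 19.0, 11.6 and 7.9 CPM in optic vesicle-like cells and at 54.4, 65.3, 28.8 and 34.6 CPM in other forebrain-like cells of libraries 1 to 4. All forebrain values were above all optic vesicle values, and the level was 4.20-fold lower in optic vesicle-like cells (3.87 to 4.57). Ephb1, known for its part in the later uncrossed retinal projection, was 2.74-fold lower (2.47 to 3.06), at 7.0 against 19.2 CPM, and missed the fold minimum against telencephalon-like cells alone, at a ratio of 0.501. Efnb2 was 2.05-fold higher (1.84 to 2.29), but the ratio was 1.89 without library 4, 1.70 without library 5 and 1.49 against telencephalon-like cells alone, none of which met the rule.

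Close relatives did not meet the rule. The ratios were 1.89 for Efna5, 1.69 for Efnb3, 0.592 for Efna2 and 0.516 for Efnb1. Ephb2 had a pooled ratio of 1.18 although it was lower in optic vesicle-like cells in each of the 4 libraries that held both classes. Of 69 other pathway genes (cytoplasmic effectors, adhesion partners and further ligands), 36 were tested here and 0 were called in either direction.

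Against the mesenchyme around it, the optic vesicle carried more Epha5 and Unc5b and less Nrp2. Of 21 members tested, 6 were higher in optic vesicle-like cells and 3 were lower, where 7.35% of all genes were called (3.51% higher, 3.84% lower), and the median log2 ratio was -0.14 over the members and -0.07 over all genes. Epha5 was at 5.5, 13.2, 13.3, 16.6 and 33.0 CPM in optic vesicle-like cells of libraries 1 to 5 and at 0.88, 0.48, 0.75, 0.55 and 1.1 CPM in mesenchyme. The 2 ranges were far apart, and the ratio was 27.1 (20.2 to 37.0), or 20.1 without library 5, where its mean again was under 10 CPM and the call was lost. The call was also lost with unnamed clusters counted in (25.6) and with libraries weighted equally (21.5).

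Unc5b was 10.1-fold higher than in mesenchyme (9.04 to 11.4), Sema6a 5.17-fold (4.50 to 5.97) and Slit2 3.76-fold (3.33 to 4.25). Ephb2, an EphB receptor, was 2.98-fold higher (2.74 to 3.25), and Efna5 2.14-fold (2.04 to 2.25). Without library 5 the ratios of Sema6a and Slit2 were 4.98 and 3.26, and neither call was kept, both means being under 10 CPM.

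The 3 members called lower in optic vesicle-like cells than in mesenchyme were Nrp2, Efna2 and Efnb1. Nrp2 was at 28.7, 19.9, 21.6, 24.7 and 50.9 CPM in mesenchyme of libraries 1 to 5 and at 27.9, 4.7, 2.8, 2.1 and 5.5 CPM in optic vesicle-like cells. Library 1 stood apart, since its 74 optic vesicle-like cells were nearly at the mesenchymal level; the pooled level was 5.83-fold lower (5.19 to 6.57), and the ratio was 0.295 instead of 0.171 with libraries weighted equally. Efna2 was 3.16-fold lower in optic vesicle-like cells (2.93 to 3.41) and Efnb1 2.36-fold lower (2.20 to 2.53). Nrp1 was 5.04-fold lower in optic vesicle-like cells (4.41 to 5.78), but it was lower in 4 of 5 libraries and so was not called. Efnb3, Efna4, Plxna1 and Plxnb2 did not meet the rule, with ratios of 1.69, 0.907, 0.736 and 0.678.

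Of the other pathway genes, 37 were tested in this contrast, 5 were higher in optic vesicle-like cells and 4 were lower. Dpysl5, a semaphorin effector of the CRMP family, was 18.8-fold higher (15.3 to 23.2) and the kinase Pak3 10.8-fold higher (9.03 to 13.0). Cxcl12, the chemokine that draws neural crest cells, was 25.3-fold lower (21.6 to 29.7), and the adhesion protein gene Flrt2, which encodes an Unc5 ligand, 3.43-fold lower (3.15 to 3.74).

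Surface ectoderm-like cells, a class of 2 clusters whose levels are not given apart here, had the highest level of Sema3a of the 8 classes. In libraries 1 to 5 it was at 44.2, 50.7, 44.5, 45.0 and 97.2 CPM in surface ectoderm-like cells, at 5.1, 2.5, 1.7, 2.9 and 6.6 CPM in optic vesicle-like cells and at 10.0, 13.1, 6.9, 5.5 and 13.9 CPM in mesenchyme. Every ectodermal value was above every value of the other 2 tissues, and library 5 was the highest of the ectodermal values. Sema3a was 13.5-fold lower in optic vesicle-like cells than in ectoderm (11.7 to 15.6), and 5.34-fold higher in ectoderm than in mesenchyme (4.78 to 5.97).

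Of 23 members tested between optic vesicle-like and surface ectoderm-like cells, 2 were higher and 4 lower in the optic vesicle, where 6.45% of all genes were called (1.48% higher, 4.97% lower). The lower genes other than Sema3a were plexins: Plxna2, which takes part in class 3 and class 6 semaphorin signalling, was 5.63-fold lower (4.82 to 6.58), and Plxnb1 and Plxnb2, receptors of class 4 semaphorins, were 2.17-fold (1.92 to 2.46) and 2.07-fold lower (1.89 to 2.27). Plxna2 in surface ectoderm-like cells stood at 10.1, 7.5, 12.7, 43.0 and 97.2 CPM in libraries 1 to 5, highest in libraries 4 and 5. Both plexin B calls lay at the fold minimum, with ratios of 0.501 and 0.505 without library 3 and 0.500 and 0.507 without library 4 for Plxnb1 and Plxnb2, where neither was called. The Plxnb2 call was also lost with unnamed clusters counted in, at 0.511.

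The 2 members higher in the optic vesicle were Epha5, at 14.3-fold (9.02 to 24.2) over 18 UMIs in the ectoderm, and Efnb3, at 3.25-fold (2.72 to 3.91). The Epha5 ratio was 12.9 without library 5, 13.0 with unnamed clusters counted in and 8.94 with libraries weighted equally. In each of these the call was lost. Efna5, Slit2 and Ephb2, with ratios of 0.967, 0.952 and 1.34, did not differ by the rule, and Unc5b was 1.86-fold higher in the vesicle, in 5 of 5 libraries, without reaching the minimum. Of 40 other pathway genes tested, the semaphorin effector gene Crmp1 (3.90-fold) and Pak3 (3.60-fold) were higher in optic vesicle-like cells and Cxcl12 was 15.3-fold lower.

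The comparison of surface ectoderm with mesenchyme uses the same mesenchymal cells as that of the optic vesicle. Of 25 members tested between surface ectoderm-like cells and mesenchyme, 7 were higher and 1 lower in the ectoderm, where 8.62% of all genes were called (6.08% higher, 2.54% lower). Besides Sema3a, the higher genes were Sema6a at 5.83-fold (4.88 to 6.97), Unc5b at 5.43-fold (4.66 to 6.34), Slit2 at 3.94-fold (3.33 to 4.66), Plxnb1 at 3.85-fold (3.33 to 4.44), and Ephb2 and Efna5 both at 2.22-fold. Efna2 was 2.37-fold lower (2.07 to 2.73). Without library 4 or library 5 the Efna5 ratio was 1.99 and 1.83, and without library 5 the Sema6a ratio was 5.70; these calls were then lost. Of 38 other pathway genes tested 3 were higher, Dpysl5 at 24.2-fold, Ablim1 at 6.41-fold and Pak1 at 2.85-fold. Of the 2 surface ectoderm-like clusters, the larger, with 214 cells and 7 of 12 ectoderm markers, was also led by the placode and anterior neural ridge genes Pitx1, Dlx5 and Hesx1 and held 0 cells of library 5, so all 66 ectodermal cells of that library came from the other cluster, which had 12 of 12. The part of this in the values, such as the high Sema3a and Plxna2 of library 5, was not tested.

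Endothelium-like cells were set against all other named cells. Of 22 members tested against all other named cells, 8 were higher and 9 lower, where 19.7% of all genes were called (12.5% higher and 7.16% lower). The median log2 ratio was 0.71 over the members and -0.07 over all genes tested.

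The receptors Plxnd1 and Nrp1, which together bind class 3 semaphorins on vessels, were both higher. Plxnd1 was at 161, 269, 188, 247 and 364 CPM in endothelium-like cells of libraries 1 to 5 and at 1.2, 1.5, 1.0, 1.2 and 2.7 CPM in the other named cells. The endothelial value was far above the other in every library, and the ratio was 158 (141 to 178). At least 1 Plxnd1 UMI was found in 96.4% of endothelium-like cells, at a median of 28136 UMIs, and in 25.3% of erythroid-like cells, the next highest of the 8 classes at 7.4 CPM and a median of 42576 UMIs.

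Nrp1 stood at 169, 165, 146, 145 and 216 CPM in endothelium-like cells and at 7.9 to 13.2 CPM in the other cells of the same libraries. Its ratio was 17.1 (16.1 to 18.2), and Nrp2, a coreceptor known from veins and lymphatic vessels, was 7.62-fold higher (7.13 to 8.14). Robo4, the vascular member of the Robo family, had 312 UMIs in endothelium-like cells and 9 in all other named cells, a ratio of 580 (302 to 1280) that was 1058 when cells above 50000 UMIs were left out. Robo4 passed the filter on mean level only through endothelium-like cells, so its call is a description.

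Ligands of the same cells were Efna1, at 83.8, 108, 85.4, 102 and 133 CPM against 0.53 to 1.3 CPM in other cells, and Sema6d. Efna1, an ephrin first found as a cytokine-induced endothelial gene, differed 121-fold (104 to 143), and Sema6d, a membrane semaphorin known from heart development, 34.4-fold (29.9 to 39.7). The classical arterial ligand Efnb2 and the classical venous receptor Ephb4 were both higher, at 36.0 against 13.3 CPM (2.70-fold, 2.44 to 2.98) and 53.0 against 14.5 CPM (3.65-fold, 3.35 to 3.96). Sema6a at 1.95-fold, Sema4c at 1.87-fold and Unc5b at 1.80-fold did not reach the minimum.

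**Figure D2:**
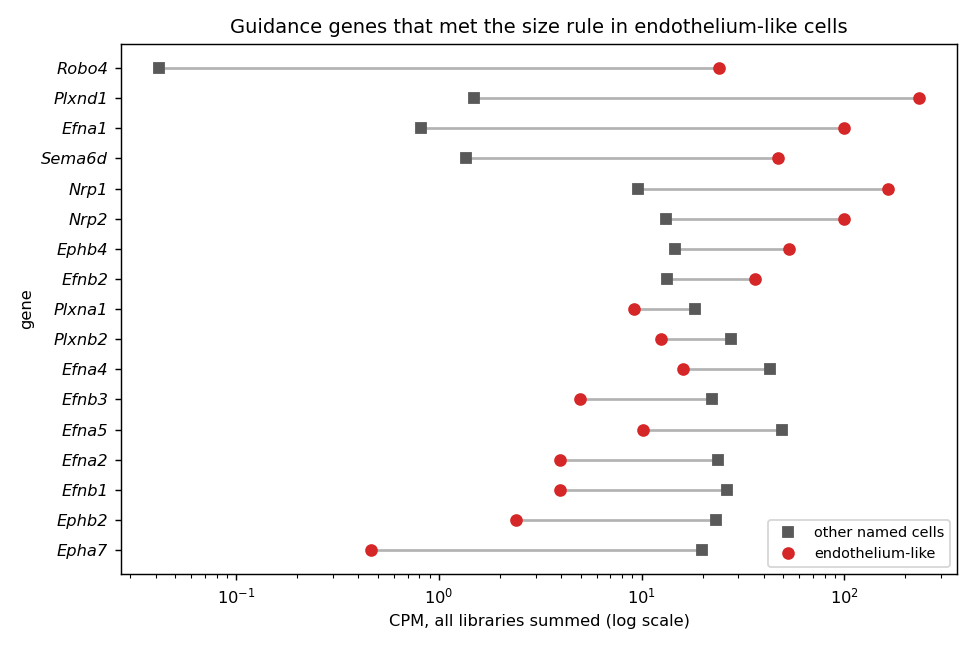
CPM (log axis) of the 17 guidance genes called in endothelium-like cells (red circles) against all other named cells (grey squares), all libraries summed, ordered by ratio. Robo4, Plxnd1, Efna1 and Sema6d have the longest lines to the right, and Epha7 and Ephb2 the longest to the left.

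The 9 members called lower in endothelium-like cells included most of the remaining ephrins. Epha7 was 43.0-fold lower (19.7 to 117), over 6 endothelial UMIs. Ephb2 was 9.74-fold lower (6.85 to 14.3), Efnb1 6.70-fold (5.09 to 9.02), Efna2 6.02-fold (4.57 to 8.10), Efna5 4.81-fold (4.06 to 5.76) and Efnb3 4.50-fold (3.51 to 5.85). Efna4, Plxnb2 and Plxna1 were 2.69-fold, 2.22-fold and 2.01-fold lower. The Epha7 ratio of 0.0233 became 0.0311 without library 1 and 0.0100 without library 2, where the call was lost, and 0.00529 without cells above 50000 UMIs. The Plxna1 call was lost without library 4 (0.532), without library 5 (0.526), with doublets kept (0.513) and with unnamed clusters counted in (0.501). Counting unnamed clusters in also lost the Epha7 call, at a ratio of 0.024.

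Of 40 other pathway genes tested, which include secreted and surface proteins as well as intracellular effectors, 11 were higher in endothelium-like cells and 7 lower, beside the 19.7% of all genes called. Vav3, an exchange factor that acts downstream of Eph receptors, was 17.1-fold higher (14.7 to 19.8), and Srgap1, a GTPase-activating protein of Slit and Robo signalling, 7.98-fold (7.34 to 8.67). Dpysl5 was 27.9-fold lower (15.2 to 58.3) and Rgma, a Neo1 ligand, 21.8-fold lower (13.0 to 39.9).

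The 2 kinds of mesenchyme differed by the rule in 2 guidance genes, Robo2 and Sema3a. Of 21 members tested between crest mesenchyme-like and head mesoderm-like cells, 0 were higher and 2 lower in crest, where 2.78% of all genes were called (0.744% higher, 2.03% lower). Robo2, a Slit receptor, was at 39.8, 49.2, 20.4 and 17.1 CPM in head mesoderm-like cells of libraries 1 to 4 and at 2.4, 3.6, 2.3 and 4.3 CPM in crest mesenchyme-like cells. The ranges did not overlap, and the level was 8.43-fold lower in crest (7.08 to 10.1). Sema3a was 2.86-fold lower in crest (2.42 to 3.38). Nrp2, Epha7, Efnb1 and Efnb3 were lower in crest in 4 of 4 libraries, with ratios of 0.595, 0.567, 0.676 and 0.678, and did not meet the rule. Without library 5, which held 516 crest mesenchyme-like and 5 head mesoderm-like cells, 5 members were called. The share of all genes called in that setting is not given here. Of 35 other pathway genes tested, only Flrt3 was called, 2.38-fold lower in crest.

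Migratory crest-like cells, named from Sox10-type markers, were 32 cells of library 5, so they are set beside crest mesenchyme-like cells of that library. Nrp2, which guides crest streams, was at 192 CPM in them and at 51.1 CPM in crest mesenchyme-like cells of library 5. Ephb2 was at 71.3 against 20.5 CPM, Robo1 at 42.1 against 19.6, Sema4c at 40.2 against 18.9 and Plxna4 at 27.4 against 4.88. Sema6d (32.9 against 1.25 CPM) rested on 18 UMIs, and Unc5c and Slit2 (both 18.3 CPM, against 7.3 and 8.6) on 10 each.

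By the rule, which compares them with crest mesenchyme-like cells of all libraries, 9 of 23 members were higher and 0 lower, where 21.4% of all genes were called (10.8% higher, 10.6% lower). These were the 8 genes above and Plxnb1, and Nrp2 had a ratio of 7.70 (6.25 to 9.39). Efnb1, Nrp1, Efna5 and Plxnb2, with ratios of 1.66, 1.63, 1.30 and 0.581, did not meet it. These calls depended on which cells were counted. With doublets kept, library 1 cells joined the class, which then had 111 cells, and 1 of the 9 calls was kept, that of Nrp2 at a ratio of 2.17. With guidance genes allowed in the clustering the class had 79 cells and 2 of the 9 calls were kept, Nrp2 at 2.73 and Robo1 at 2.18. Of 40 other pathway genes tested 9 were higher and 4 lower; Flrt1 was 71.2-fold higher (34.8 to 143) and Cxcl12, with 1 UMI, had a ratio of 0.0322 (0.000816 to 0.180).

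Within the optic vesicle, Unc5b was higher in dorsal-marked than in ventral-marked cells, names that rest on markers and not on a measured position. Dorsal-marked cells had at least 1 UMI of the dorsal factors Tbx2, Tbx3 or Tbx5 and none of the ventral factors Vax1 and Vax2, and ventral-marked cells the reverse, which gave 349 dorsal-marked and 690 ventral-marked cells. In libraries 2 to 5 Unc5b was at 70.9, 58.8, 122 and 215 CPM in dorsal-marked cells and at 35.8, 24.0, 20.2 and 25 CPM in ventral-marked cells. All dorsal values were above all ventral values, and the dorsal values of libraries 4 and 5 were the highest. The level was 4.92-fold lower in ventral-marked cells (4.48 to 5.40), and 3.08-fold lower without library 5.

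Of 20 members tested between ventral-marked and dorsal-marked cells, 0 were higher and 2 lower ventrally, where 0.821% of all genes were called (0.259% higher, 0.562% lower). The second was Robo2, at 8.6, 8.9, 18.0 and 39.8 CPM in dorsal-marked cells of libraries 2 to 5 and at 6.5, 4.8, 7.7 and 13.5 CPM in ventral-marked cells. Its ranges overlapped across libraries, and the dorsal value was the higher in each. It was 2.26-fold lower ventrally (1.89 to 2.70), with a ratio of 0.549 and no call without library 5.

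The Eph and ephrin genes known for dorsoventral mapping in the retina did not meet the rule. Efnb2, dorsal in the later retina, was at 11.1, 8.9, 17.2 and 48.6 CPM in dorsal-marked and 23.4, 13.3, 12.6 and 11.4 CPM in ventral-marked cells of libraries 2 to 5. It was thus higher ventrally in libraries 2 and 3 and higher dorsally in libraries 4 and 5, with a pooled ratio of 0.559. Ephb2, ventral in the later retina, was at 29.9, 23.0, 33.5 and 51.7 CPM in ventral-marked and 20.3, 24.6, 21.0 and 31.7 CPM in dorsal-marked cells. It was higher ventrally in 3 of 4 libraries, with a ratio of 1.51 (1.33 to 1.71). Epha5 had a ratio of 0.610 and Slit2 of 0.798. Of 39 other pathway genes tested, Pak3 (2.30-fold) and Ablim1 (2.15-fold) were higher ventrally and Flrt2 was 2.30-fold lower.

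**Figure D3:**
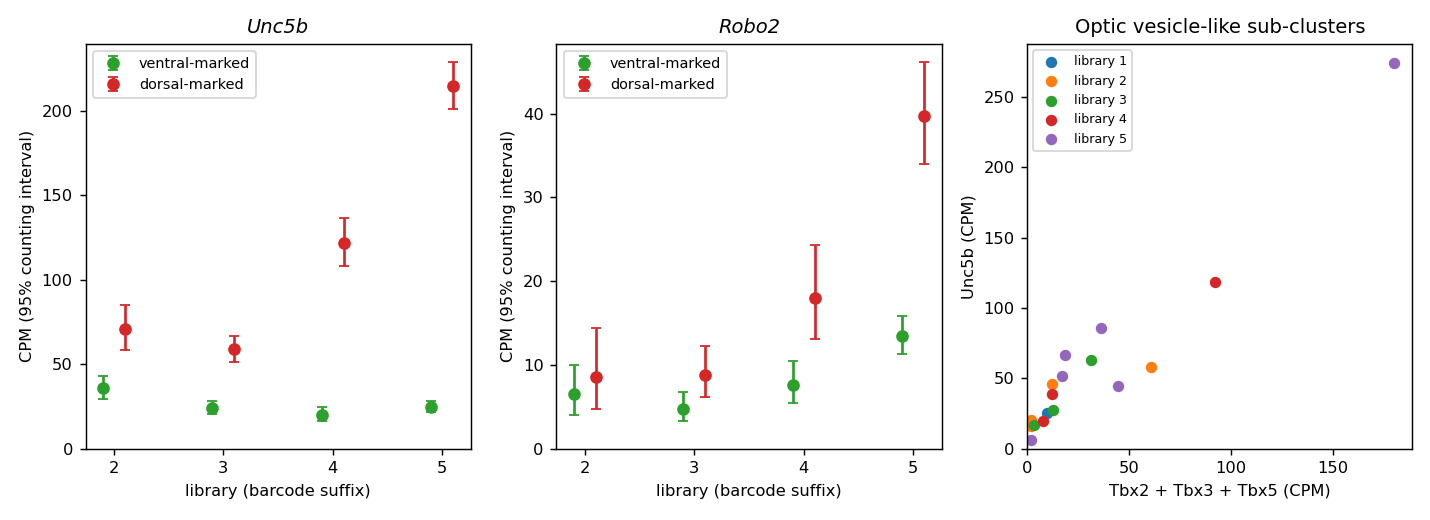
Left and middle, CPM of Unc5b and Robo2 in ventral-marked (green) and dorsal-marked (red) optic vesicle-like cells of libraries 2 to 5, with 95% counting intervals. Right, Unc5b against the summed CPM of Tbx2, Tbx3 and Tbx5 in the 17 optic vesicle-like sub-clusters, coloured by library, with the highest point, a sub-cluster of library 5, at 274 CPM of Unc5b.

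The same relation appeared without marking single cells. Over the 17 optic vesicle-like sub-clusters, which were built in each library without any guidance gene, the rank correlation of Unc5b with the summed Tbx2, Tbx3 and Tbx5 level was 0.919, and with the summed Vax1 and Vax2 level 0.196. Sub-clusters of 1 library share its depth and embryo, so this is a description. For Ephb2 the 2 values were 0.0049 and 0.750, for Efnb2 0.542 and -0.012, and for Efna5 -0.102 and 0.205. Unc5b ranged from 6.1 CPM in a library 5 sub-cluster of 170 cells, with 83 CPM of Vax2 and 0.45 of Tbx5, to 274 CPM in a library 5 sub-cluster of 99 cells, with 12.8 CPM of Vax2 and 73.1 of Tbx5. Rax was at 58.0 CPM in the first of these and at 308 CPM in the second. In each of libraries 2 to 5 the sub-cluster highest in Unc5b was also the highest in Rax. Which of these genes Unc5b follows was not tested.

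In library 5, 266 optic vesicle cells were named retina-like and 141 pigment epithelium-like from markers of the neural retina and the pigment epithelium. Of 21 members tested between them, 5 were higher in retina-like cells and 1 was lower, where 3.67% of all genes were called (1.45% higher, 2.22% lower). Both groups come from library 5, the only library with retina-like cells. A sub-cluster of 93 cells in library 4 also carried the pigment epithelium-like name and did not enter these ratios; its Unc5b stood at 118 CPM and its Robo2 at 19.4 CPM, against 44.4 and 59.1 CPM in the pigment epithelium-like cells of library 5.

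Unc5b was at 157 CPM in retina-like and 44.4 in pigment epithelium-like cells, a 3.54-fold difference (3.03 to 4.17). The retina-like cells were made of 2 sub-clusters, one of 99 cells with high Tbx5 and 274 CPM of Unc5b, the other of 167 cells with 85.4 CPM. Both lay above the pigment epithelium-like value of library 5, while the pigment epithelium-like sub-cluster of library 4 lay between them. Efnb3 was 2.51-fold higher (1.99 to 3.20), Sema6a 2.35-fold (1.78 to 3.13), Epha5 2.17-fold (1.72 to 2.77) and Efnb2 2.06-fold (1.60 to 2.68). Efnb2 was at 60.2 CPM in the sub-cluster of 99 cells and at 24.9 CPM in that of 167 cells, nearer to the 18.6 CPM of the pigment epithelium-like cells.

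Robo2 was the member called higher in pigment epithelium-like cells, at 59.1 against 13.3 CPM (a 4.45-fold difference, 3.52 to 5.64). Its sub-cluster value of 59.1 CPM was the highest of the 17, and the next, 26.7 CPM, belonged to the retina-like sub-cluster with high Tbx5. The Slit2 ligand was at 32.6 CPM in retina-like and 20.1 in pigment epithelium-like cells, a ratio of 1.62 that did not meet the rule. Efna5, Efna4, Ephb2 and Efnb1 also missed it, with ratios of 0.994, 1.03, 1.55 and 0.501. Of 44 other pathway genes tested, Pak3 (3.11-fold) and Flrt2 (2.54-fold) were higher in retina-like cells and 0 were lower.

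Between libraries, the optic vesicle-like levels of 5 of the 7 members at 20 CPM or more differed at least 2-fold from lowest to highest library with intervals apart, where 16.6% of 4869 genes did. Epha5 was at 5.5, 13.2, 13.3, 16.6 and 33.0 CPM in libraries 1 to 5, a 6.00-fold range, but it reached 20 CPM over all libraries only through library 5, so its place among the 5 is no support for a difference. Ephb2 was at 13.7, 24.6, 23.6, 29.8 and 48.7 CPM (3.55-fold), and Unc5b at 25.5, 29.9, 32.0, 54.8 and 80.2 CPM (3.14-fold). In each of these library 1 was lowest and library 5 highest, and the libraries name no stage.

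Efnb3 ran from 16.1 CPM in library 1 to 38.6 in library 5 (2.40-fold) and Plxnb2 from 13.4 to 27.7 (2.07-fold). Efna4 (36.6 to 55.2 CPM) and Efna5 (60.9 to 91.5 CPM) did not differ 2-fold, and Efna5 was highest in library 1. Library 1 had 74 optic vesicle-like cells and library 5 had 825, and median depth over all barcodes was 30922 and 20713 UMIs. With cells thinned to 10000 UMIs, which kept 780 of the 825 cells of library 5 and 327 of the 335 of library 2, 5 members again met the criterion. The share of all genes that met it after thinning is not given here. The Epha5 ratio was then 24.5, with library 1 at 1.35 CPM, a level of about 1 UMI from which no change is read.

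**Figure D4:**
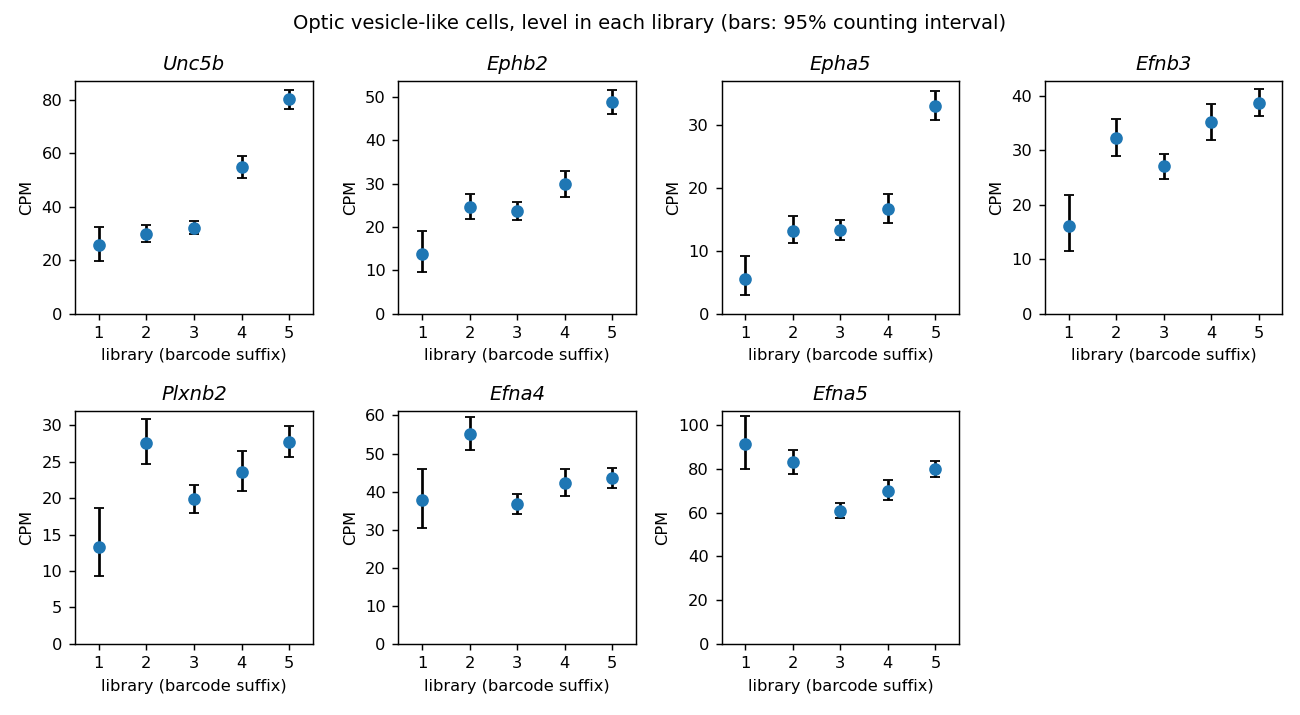
CPM of the 7 guidance genes at 20 CPM or more in optic vesicle-like cells, by library, with 95% counting intervals. Unc5b, Ephb2, Epha5, Efnb3 and Plxnb2 are lowest in library 1 and Efna5 is highest there.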

How the data were processed

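The authors deposited raw UMI counts for each gene and cell in 1 pooled matrix, with no sign of normalisation in the values. The submitters' processing notes name Cell Ranger and the build mm10 (GRCm38), with no version or cell-calling setting given in the sources used here. The members, gene lists and comparisons were chosen with earlier results of these data known.

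Barcodes under 1000 genes or over 10% mitochondrial UMIs were dropped (22), and Scrublet in scanpy 1.11.5, run per library at an expected rate of 6%, removed 66 doublets (0.808%). Cells were clustered (2000 variable genes, 30 components, 15 neighbours, Leiden resolution 1, no library integration) without guidance genes. Neuroepithelial cells were clustered again within each library. Clusters were named from marker lists, but the naming thresholds were set after the data were seen: at least 7 of 10 optic vesicle markers against non-neuroepithelial cells for optic vesicle-like, Malat1 under 400 CPM for nucleus-depleted, and at least 5 markers of another tissue at 10% of its level or more for mixed clusters. A sub-cluster was named retina-like or pigment epithelium-like where it had at least 3 markers of their list 2-fold over the other optic vesicle-like cells of the library. Raw UMIs were summed per class and library with numpy 2.4.6 and scipy 1.17.1, and ratios of CPM have exact 95% conditional intervals for 2 Poisson counts. A class at 0 UMIs was set to a floor of 3 counts. The ratio and call code was tested on simulated counts.

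Named with values were every member meeting the size rule (up to 12 per direction), up to 4 relatives of the same family at 20 CPM or more that missed it, members at 20 CPM or more in a class, and up to 4 other pathway genes per comparison. All 69 symbols matched the RefSeq table. Alternatives changed the clustering, doublets, weighting, fold minimum, low-level filter, libraries and depth. Cells above 50000 UMIs left out, and telencephalon-like or diencephalon-like cells alone, were chosen after seeing the data. So were the motifs and the sub-cluster levels. The samples have no map to the libraries, so stages were not compared.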

Additional observations from a re-analysis of the deposited data

How the results depend on the processing

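Across 64 results for named members there were 701 values under alternatives that left the fold minimum and the low-level filter unchanged. Of these values, 654 kept direction and call, 46 kept direction and lost the call, and 1 reversed (Plxnb1 in migratory crest-like cells, ratio 0.954 with doublets kept). Under all of these alternatives 42 of the 64 kept their call. A stricter filter or fold minimum, given below as counts, cost further calls that the 42 does not reflect. The number of members called depended most on the filter on low levels. The share of all genes called under each changed setting is not given here. The counts that follow therefore describe the rule and are not read as a trait of the guidance genes. With no filter on mean CPM it was 9 instead of 5 for optic vesicle-like against other forebrain-like cells, 29 instead of 9 against mesenchyme, 19 instead of 6 against surface ectoderm-like cells, 18 instead of 8 for surface ectoderm-like cells against mesenchyme, 47 instead of 17 for endothelium-like cells, 12 instead of 2 for crest mesenchyme-like against head mesoderm-like cells, 18 instead of 9 for migratory crest-like cells, 8 instead of 2 for ventral-marked against dorsal-marked cells and 14 instead of 6 for retina-like against pigment epithelium-like cells. With a mean of at least 20 CPM, 7 of these 9 counts moved by over 1.5 times, to 2 (forebrain), 5 (optic vesicle against mesenchyme), 3 (ectoderm against mesenchyme), 10 (endothelium), 0 (crest against head mesoderm), 4 (migratory crest) and 1 (ventral against dorsal). A fold minimum of 1.5 gave 8 for the forebrain contrast, 5 for crest against head mesoderm and 11 for retina against pigment epithelium. A minimum of 3 gave 3, 1 and 2 for these, 5 for ectoderm against mesenchyme and 1 for ventral against dorsal. Without library 5 the counts were 3 for the forebrain contrast, 5 for crest against head mesoderm and 1 for ventral against dorsal; resolution 2 gave 6 for crest against head mesoderm, and doublets kept gave 3 for migratory crest. Where no value shows it, the cause was not tested.

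Leaving out library 5 was not run for the migratory crest-like and retina-like comparisons, which rest on that library. A test paired by library was not run, because libraries that cannot be matched to a sample were not used as replicates; the direction within each library is part of the call rule. Whether the spread between libraries is between stages or between embryos cannot be told apart. Low members limit the set: genes under 10 CPM on average were not called.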

Other observations

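The 32 neuron-like cells, 14 of them in library 2, carried several guidance receptors, with wide intervals. Ephb2 was at 62.8 CPM (95% counting interval 44.2 to 86.5), Nrp2 at 54.3 (37.1 to 76.6) and Robo1, a Slit receptor of early axons, at 40.7 (26.1 to 60.6). Dcc was at 5.1 CPM over 3 UMIs (1.0 to 14.9). No comparison was fixed for these cells.

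Ephb1 in dorsal-marked optic vesicle-like cells was at 8.0, 7.1 and 2.5 CPM in libraries 2 to 4 and at 0 UMIs in library 5, which allows up to 0.694 CPM, and in ventral-marked cells of libraries 2 to 5 at 13.0, 9.2, 5.1 and 4.1 CPM; it was under the mean of 10 CPM and was not tested. Ntn1 in optic vesicle-like cells stood at 16.1 CPM in ventral-marked and 2.2 CPM in dorsal-marked cells, a ratio of 7.18 (4.92 to 10.9) that was higher ventrally in 4 of 4 libraries, where Unc5b was higher dorsally. Ntn1 was likewise under that mean. These 2 genes were chosen after their values were seen.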
